A study of Homo sapiens with 6 samples.

Results

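The sites described are the Tg sites in the interior of chromosome 22, chosen by position alone: a site was kept when its midpoint lay at least 5 Mb from both ends of the chromosome in hg38, which is from 5000000 to 45818468. The rule found 97 of the 3688 sites listed for wild-type cells and 231 of the 9373 sites listed for the double knockout. Tg is thymidine glycol, an oxidised thymidine. The sites came from DPC-Seq on genomic DNA of HEK293T, a line derived from human embryonic kidney. Purified DNA was bound to NTHL1 protein in the tube, and the bound fragments were sequenced. The groups are wild-type cells and cells that are NTHL1-/-,NEIL1-/- (the double knockout), none of them treated. Each genotype has 2 libraries labelled with NTHL1 and 1 input library. Each genotype is 1 deposited list, without values per library, so no value here has a spread between replicates and no comparison between the genotypes has a p-value. The lists record DNA, so neither the cell type nor the genotype could be checked against expressed genes, and the number of knockout clones is not given in the sources used here.

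NTHL1 and NEIL1 are bifunctional DNA glycosylases: they cut oxidised pyrimidines such as Tg out of DNA, nick the strand, and hand the gap to the later steps of base excision repair. Tg arises when oxidants add hydroxyl groups across the double bond of thymine, and it blocks many DNA polymerases. A site in these lists is a short stretch of DNA where fragments captured by NTHL1 outnumbered the background. It does not give the damaged base itself.

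The rule's outer limit cut through no site of either list. The last wild-type site inside it lay in RIBC2 (45420306 to 45420703, fold enrichment 3.09, 9 reads at the summit), and the last double-knockout site lay in ATXN10 (45723289 to 45723558, fold 6.08, 15 reads). Both lists had their first site outside the limit at nearly the same place, from 45887367 in wild-type cells (fold 5.79, 17 reads) and from 45887269 in the double knockout (fold 4.36, 19 reads). Towards the other end, no site of chromosome 22 lay below 5 Mb. The windows from 5000001 to 10000000 held no annotated gene and no site either, and whether reads could be placed there was not tested.

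Only 2 annotated promoter windows in the interior overlapped a site, and their sequences are shown because they are the only bases of interior sites that the sequence table used here holds. The table, from RefSeq on GRCh38.p14, gives 250 bases before and 50 after a gene's start. Both genes are uncharacterised long non-coding RNA genes on the minus strand. The window of LOC107985561 (chr22:32333743-32334042) lay with all 300 of its bases inside a site of each list, and is printed with stretches of at least 6 alternating T and G in capitals.
LOC107985561: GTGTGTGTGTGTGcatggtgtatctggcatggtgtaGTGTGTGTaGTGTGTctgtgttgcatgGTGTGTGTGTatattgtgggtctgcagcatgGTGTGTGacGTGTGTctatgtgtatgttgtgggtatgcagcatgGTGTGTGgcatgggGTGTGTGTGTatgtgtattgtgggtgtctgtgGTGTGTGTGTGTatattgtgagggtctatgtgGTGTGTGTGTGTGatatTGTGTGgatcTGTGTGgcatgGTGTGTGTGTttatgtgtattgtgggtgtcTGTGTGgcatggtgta
The window of LOC124900478 (chr22:36954611-36954910) overlapped a site of the wild-type list alone, and its 164 bases inside that site are in capitals.
LOC124900478: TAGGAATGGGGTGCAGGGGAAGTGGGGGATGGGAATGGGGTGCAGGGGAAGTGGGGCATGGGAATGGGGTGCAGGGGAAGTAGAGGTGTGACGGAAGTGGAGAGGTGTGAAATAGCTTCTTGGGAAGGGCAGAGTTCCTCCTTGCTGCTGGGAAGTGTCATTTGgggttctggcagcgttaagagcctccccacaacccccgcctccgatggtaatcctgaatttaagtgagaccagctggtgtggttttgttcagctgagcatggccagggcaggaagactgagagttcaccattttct

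The window of LOC107985561 is rich in TG repeats. It held 14 such stretches covering 120 of its bases, and thymine and guanine each made up 41.7% of it, against medians over all promoter windows of 20.7% for T and 28.7% for G. The letters TGTGTG, searched on both strands with overlapping matches counted, occurred 23 times. TGTGTG occurred at least once in 17.2% of the 34943 promoter windows, and 3 of them, this one included, held it at least as often. Over the whole genome the letters were in 13 of the 34 windows that overlapped a wild-type site (38.2%) and in 29 of the 78 that overlapped a double-knockout site (37.2%). The window of LOC124900478 held none. Its bases inside the site were 48.2% guanine. The site over LOC107985561, which also lies within SLC5A4, a gene of the sodium-glucose cotransporter family, ran from 32333713 to 32334205 in wild-type cells (fold 5.98, 14 reads) and from 32333737 to 32334241 in the double knockout (fold 6.82, 33 reads). The site over LOC124900478 ran from 36954747 to 36955149.

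No promoter of a protein-coding gene was covered by a site. In the interior 0 of 360 promoter windows of protein-coding genes overlapped a site of either list, which allows a share of up to 0.833%. Over all promoter windows of the genome, coding or not, 0.0973% overlapped a site of the wild-type list and 0.223% one of the double-knockout list. The matching set of the interior is all 569 of its promoter windows, of which 2 met the wild-type list and 1 the double-knockout list. No genome share for protein-coding windows alone is given here. None of the 32 miRNA hairpins of the interior overlapped a site (up to 9.38%). No genome share for hairpins is given here either, so this count cannot be read as a trait of the hairpins.

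The interior of chromosome 22 was second only to that of chromosome 19 in sites per Mb, in both lists. Wild-type cells had 2.38 sites per Mb there (95% exact Poisson interval 1.93 to 2.90) and the double knockout 5.66 (4.95 to 6.44). The interior of chromosome 19 had 3.62 (3.11 to 4.20) and 10.4 (9.54 to 11.4), and that of chromosome 1 had 1.52 (1.37 to 1.68) and 4.40 (4.14 to 4.67). The interiors of the other 23 chromosomes together had 0.906 (0.871 to 0.942) and 2.62 (2.56 to 2.68). The intervals of chromosome 22 did not meet those of any of these sets. Next in order came chromosome 16 in wild type, 1.71 (1.43 to 2.02), whose interval did meet that of chromosome 22, and chromosome 20 in the double knockout, 4.61 (4.06 to 5.22), whose interval did as well. Chromosome 22 ranked 3 of 24 in protein-coding genes per Mb of interior. All such intervals cover counting error only, since sites cluster. Whether copies of a fragment made in amplification had been removed is not given in the sources used here. Counted from the first annotated gene or site, whichever came earlier, the length was 35.1 Mb. By that length chromosome 22 had 2.76 and 6.58 sites per Mb and kept its rank.

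**Figure D1:**
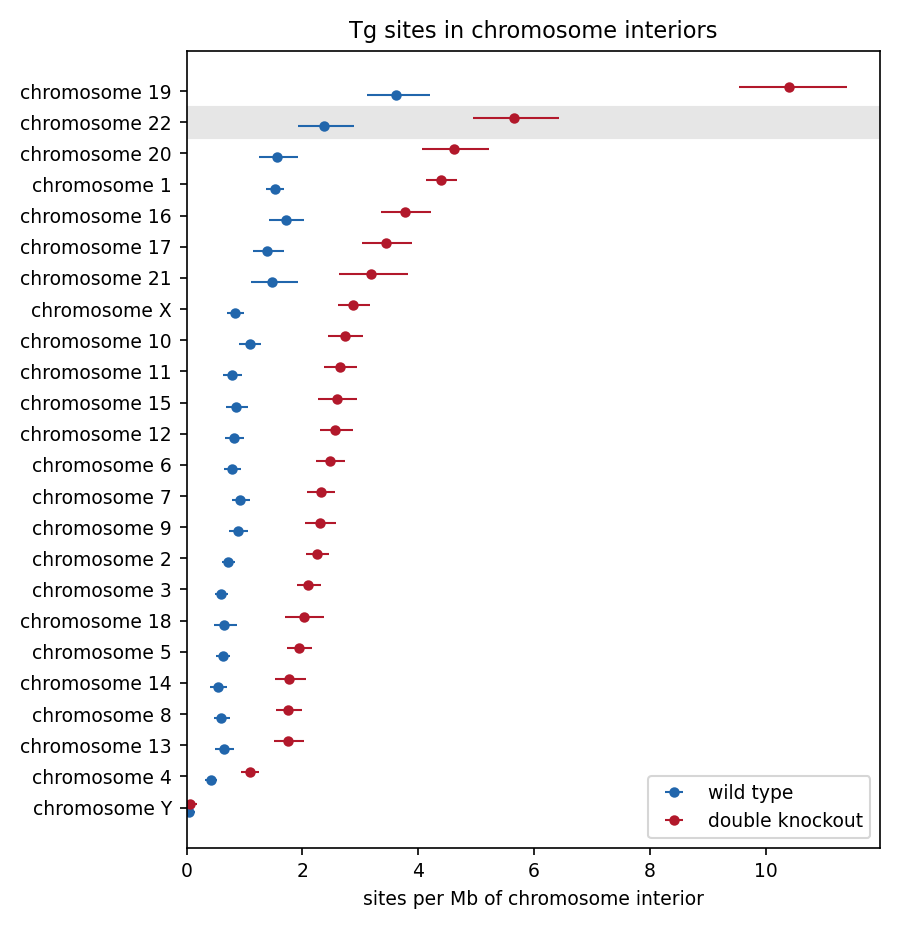
Tg sites per Mb of chromosome interior (horizontal axis) for the 24 chromosomes (vertical axis, ordered by the double-knockout value), in wild type (blue) and double knockout (red); bars are 95% exact Poisson intervals. Chromosome 22, shaded, stands at 2.38 and 5.66 sites per Mb, below chromosome 19 at 3.62 and 10.4 and above the rest.

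Sites in the interior stood on a higher background than the pooled sites of the other interiors. The caller's background at the summit, recovered with the reads as described under processing, had a median 2.68 times the lowest of the whole wild-type list (95% interval of the median 2.45 to 2.93), against 2.28 (2.12 to 2.35) in the other interiors. In the double knockout these values were 2.55 (2.36 to 2.55) and 1.91 (1.91 to 1.96). Chromosome 19 had 2.20 in wild type with 2.12 in the double knockout, and chromosome 1 had 2.68 with 2.23, so the wild-type value of chromosome 22 was not higher than that of chromosome 1. Whether the number of copies of chromosome 22 in HEK293T had a part in its density or its background was not tested.

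The double-knockout list held 2.38 times as many sites in the interior as the wild-type list (exact interval 1.87 to 3.05), beside 2.89 times (2.76 to 3.03) in the other interiors and 1.70 times (1.18 to 2.46) in the 5 Mb at the end of chromosome 22. Only the last 2 of these intervals lie apart, and neither belongs to the interior. The double-knockout list is also the deeper, by a factor of 1.69 in depth times fragment length or 1.61 in depth alone. At −log10 p above 8.46, the median for all wild-type sites, stood 55 wild-type and 149 double-knockout sites of the interior. After thinning of the double-knockout reads by 1.69 the expected number was 67.4 sites, 1.23 times the wild-type number, and by 1.61 it was 73.9, 1.34 times. In the other interiors the same ratios were 1.39 and 1.54.

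Widths ran from 243 to 1256 bp in wild-type cells (median 398) and from 256 to 2090 bp in the double knockout (median 423), and 5 and 16 sites were at least 1 kb wide. Fold enrichments ran from 2.69 to 15.8 (median 5.22) and from 2.59 to 12 (median 4.82). The interiors of the other chromosomes had median widths of 361 bp (356 to 371) and 394 bp (390 to 399), beside 350 to 436 and 404 to 447 as the intervals of chromosome 22, and median folds of 5.12 and 4.93. Reads at the summit ran from 7 to 35 in wild-type cells (median 14.0; interval 13 to 16) and from 9 to 54 in the double knockout (median 19; 18 to 20.0). The other interiors had medians of 13 and 16 reads (13 to 13 and 16 to 17). Double-knockout sites of chromosome 22 were thus wider and had more reads than the pooled others, by intervals that do not meet. Against single chromosomes this did not always hold. In the double knockout the reads of chromosome 1 (18 to 19) and the widths of chromosome 19 (379 to 423) met the intervals of chromosome 22. The reads of chromosome 19 (16 to 17) and the widths of chromosome 1 (380 to 402) did not. The highest site of the other interiors had 405 and 452 reads.

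Its 2 highest sites were the same in both lists. A site outside any annotated gene, 34396461 to 34396861, had the lowest q of the wild-type list in the interior, with a fold of 15.8 and 32 reads (counting interval 21.9 to 45.2). The double knockout had it at 34396455 to 34396975 with a fold of 11.3 and 31 reads (21.1 to 44), where it ranked 2. It is 669 kb from the nearest start of a protein-coding gene. A site in KIAA1671, an uncharacterised gene, ranked 2 in wild-type cells (25093603 to 25093931, fold 14.0, 35 reads) and 1 in the double knockout (25093563 to 25093924, fold 12, 43 reads). Both summits were at base 25093793. These sites stood above all others in fold: the next had 10.9 in wild-type cells and 9.12 in the double knockout.

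The site with a fold of 10.9 lay in the non-coding gene LOC105373024 (37328781 to 37329217, 26 reads), and its fold in the double knockout was 6.86 (23 reads). Next in wild type came a site in PARVB, whose product β-parvin links integrins to actin (44122363 to 44122743, fold 6.93, 30 reads, against 4.41 and 35 reads in the double knockout). It was followed by a site in SHISAL1 (44269065 to 44269730, fold 8.05, 25 reads, against 8.12 and 33). The others of the first 10 in wild type lay in SYN3, SGSM1, UPK3A, in the overlap of GNAZ and RSPH14, and outside genes. In the double knockout the site in the non-coding gene LOC124905116 ranked 3 (38460357 to 38460944, fold 7.28, 44 reads), a 1266 bp site in TOM1, which encodes an adaptor of endosomal sorting, ranked 4 (fold 6.24, 45 reads), and a 1189 bp site in LINC00229 ranked 5 (fold 6.80, 41 reads). EFCAB6, SHISAL1 and CACNG2 followed, then a site outside genes, and SLC5A4. Of these 20 places, 2 were without a partner in the other list: the wild-type site in SGSM1 (24900108 to 24900474, fold 7.94, 17 reads) and the double-knockout site outside genes at 27636262 to 27636778 (fold 8.97, 26 reads).

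Among the 97 sites of wild-type cells 77 overlapped a site of the other list by 1 bp or more, 79.4% (exact binomial interval 70.0% to 86.9%), where the whole wild-type list had 75.3%. Of the 231 double-knockout sites 76 were shared, 32.9% (26.9% to 39.4%), where the whole list had 28.3% and the other interiors 23.7% (22.7% to 24.6%). The interval of the interior lies above that of the other interiors for the double knockout and meets it for wild type, 71.5% (69.7% to 73.2%). Chromosome 19 had 78.4% (71.6% to 84.2%) and 26.6% (22.8% to 30.7%), and both intervals met those of chromosome 22. The 5 Mb at the end of chromosome 22 had 82.0% and 48.2%. Sharing went with strength. Among the 50 wild-type sites at or above their median −log10 q, 46 were shared (92.0%), and among the other 47, 31 were (66.0%). The double-knockout list gave 66 of 116 (56.9%) and 10 of 115 (8.70%). The whole lists, split at their own medians, had the same pattern. Their shares were 85.9% and 64.5% in wild type and 44.3% and 12.2% in the double knockout.

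The 155 double-knockout sites without a partner were weak for the most part. Their reads, divided by 1.69, had a median of 10.0, beside 14.8 for the shared ones, and 139 of the 155 fell below the wild-type median of 14.0 reads, where 33 of the 76 shared ones did. Only 11 fell below the lowest wild-type site, which had 7 reads. Of the 155 sites, 27 lay within 10 kb of a wild-type site and 82 lay over 100 kb from one. The 20 wild-type sites without a partner had folds from 4.02 to 7.94 (median 4.86) and a median of 11.5 reads. Among them were those in TRIOBP, an actin-binding protein gene (37724549 to 37724893, fold 4.27), GAL3ST1, a sulfotransferase gene (fold 4.02), DNAL4, a dynein light chain gene (fold 5.31), and LHFPL7 (fold 4.85), which are the 4 protein-coding genes with a wild-type site and no double-knockout site and were picked out for that.

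At the 77 shared wild-type sites, double-knockout reads divided by 1.69 were a median 0.955 of the wild-type reads (interval of the median 0.90 to 1.03; range 0.523 to 1.94), and 42 of the 77 ratios were below 1, where 58.2% were over the whole list. With 1.61 as divisor the median was 1.01 (0.949 to 1.09) and 37 were below 1, so the side of 1 depends on the divisor. The counting interval of a single ratio lay below 1 at 2 sites, where it did at 2.92% of shared sites over the whole list, and above 1 at 0 sites, beside 0.432%. These 2 were the site outside genes at 34396461 (0.572, 0.338 to 0.969) and the site in LOC105373024 (0.523, 0.285 to 0.953), both among the first 3 of the wild-type sites in the interior. With 1.61 as divisor neither interval excluded 1. The highest ratio, 1.94, came from a site in SYN3 with 7 wild-type reads.

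**Figure D2:**
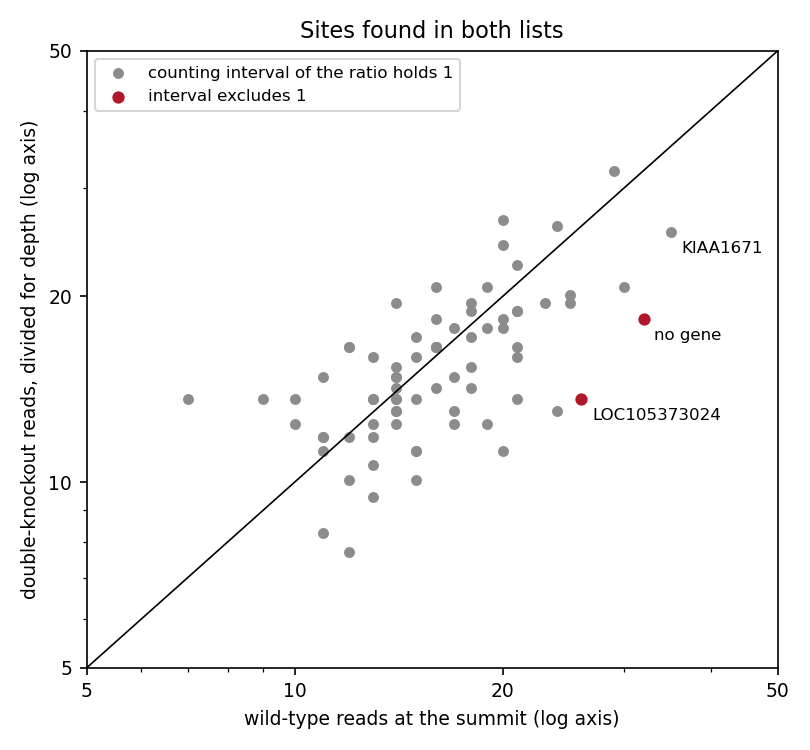
Reads at the summit of the 77 shared sites in wild-type cells (horizontal axis) and in the double knockout after division by 1.69 (vertical axis), both on log axes; 1 point is 1 site, some coincide, and the line marks equal values. The 2 red points, whose counting interval of the ratio excludes 1, lie below the line at 32 and 26 wild-type reads.

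By 1 Mb windows, sites were spread over nearly all of the annotated chromosome. The interior has 41 windows, of which 34 hold an annotated gene. Wild-type sites were in 25 windows and double-knockout sites in 31, and no window had wild-type sites alone. Over the interiors of all chromosomes 40.0% of windows held a wild-type and 65.6% a double-knockout site. Annotated windows had a median of 2.50 wild-type and 6 double-knockout sites. Across these 34 windows the 2 numbers had a Spearman rho of 0.783, and the number of protein-coding genes in a window had a rho of 0.212 with its wild-type and 0.174 with its double-knockout sites. Neighbouring windows share sequence context, and these values are descriptions. In the 5 leading windows of each list lay 43.3% of its sites for wild type, and 34.6% for the double knockout.

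The window from 44000001 to 45000000 led both lists, with 12 wild-type and 20 double-knockout sites. All 12 wild-type sites were shared, and they overlapped 12 double-knockout sites. They lay in PARVB (2), PARVG (1), SHISAL1 (1), LINC00229 (2) and PHF21B (2), which encodes a PHD finger protein, and outside genes. Their folds ran from 4.28 to 8.05, and those of the 20 double-knockout sites from 3.04 to 8.12. In LINC00229, 19.1 kb long, wild-type sites at 44617313 to 44618098 (fold 6.03) and 44618926 to 44620003 (fold 5.30) faced double-knockout sites of 6.80, 3.98 and 5.39 in fold.

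Second in both lists was the window from 27000001 to 28000000, with 10 and 17 sites, none of them in a protein-coding gene. It holds only 2 protein-coding genes by midpoint, and 8 of the wild-type and 13 of the double-knockout sites lay outside any annotated gene. The others were in the non-coding genes LINC02554, LOC105372981 and CPMER. Reads were low to middling, 10 to 21 in wild-type cells and 9 to 28 in the double knockout. Shared were 6 of the 10 wild-type sites, among them neighbours at 27091701 to 27092018 (fold 5.84) and 27092775 to 27093765 (fold 5.90).

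The window before it, from 26000001 to 27000000, ranked 3 in the double knockout with 16 sites and held 1 wild-type site, a wild-type share of 5.88% of all its sites (exact interval 0.149% to 28.7%). The wild-type share of both lists together was 28.2% over the genome, inside that interval, and 29.6% in the interior, outside it. The window was singled out for this share, so the interval is too narrow as a test. The shared site lay at 26133794 to 26134451, with a fold of 5.80 in wild-type cells and 6.32 in the double knockout. The 15 others had folds from 2.97 to 6.41 and 9 to 27 reads, with a median of 8.86 after division by 1.69. They included the sites in CRYBA4, CRYBB1 and SEZ6L.

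Next in order in the double knockout were the windows at 43000001 with 14 sites (5 in wild type), over EFCAB6 and MPPED1, and at 32000001 with 13 (5 in wild type), over SYN3. The window at 38000001, over FAM227A, also had 13 (4 in wild type). In wild type the windows at 36000001, over CACNG2, and 37000001, over CYTH4 and MFNG, had 7 sites each (12 and 11 in the double knockout), and that at 39000001, over CACNA1I, had 6 (8 in the double knockout). Only the window at 22000001, which holds the immunoglobulin lambda locus IGL, had more wild-type than double-knockout sites, 4 and 3. The 6 windows with double-knockout sites alone held 1 to 6 of them.

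**Figure D3:**
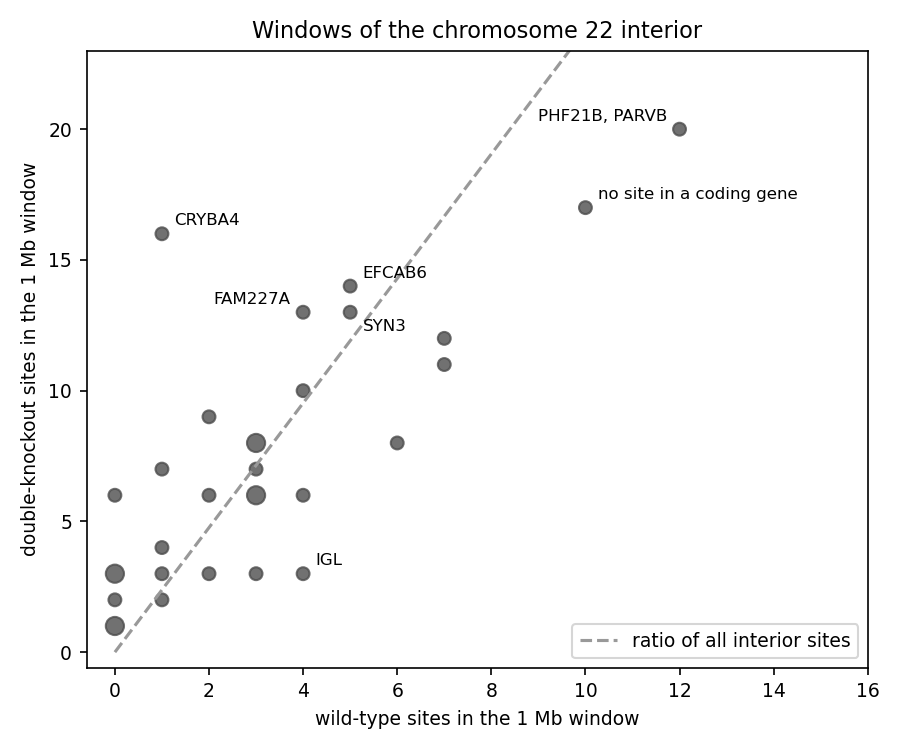
Wild-type (horizontal axis) and double-knockout (vertical axis) sites in each 1 Mb window of the interior with a site; larger points stand for 2 windows, the dashed line has the ratio of all interior sites, 2.38, and names are genes with sites in the window. The window of PHF21B and PARVB and the window with no site in a coding gene lead with 12 and 20 and with 10 and 17 sites, and that of CRYBA4 (1 and 16) lies far above the line.

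Empty stretches were few. Of the 10 windows without a site in either list, 7 hold no annotated gene. The others were at 12000001, with 8 annotated genes and none coding for protein, at 18000001, with 9 protein-coding genes that include PRODH and USP18, and at 42000001, with 16 that include CYP2D6 and TCF20. Next to the centromere, below 12 Mb, lay 4 wild-type and 12 double-knockout sites with no protein-coding gene near. Their median background was 4.34 in wild-type cells and 5.78 in the double knockout, beside 1.98 and 3.19 above 18 Mb. Their median folds were 3.75 and 3.89, beside 5.30 and 4.86. The 4 wild-type sites were all shared.

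Protein-coding genes of the interior numbered 386, and 33 of them (8.55%) held a wild-type and 74 (19.2%) a double-knockout site, against 5.91% and 14.1% of protein-coding genes over the genome. Both lists had a site in 29 genes, and 45 had double-knockout sites alone. Genes with a site in either list had a median length of 71.2 kb and those without 16.8 kb. At least 3 sites were found in 4 genes in wild-type cells and in 13 in the double knockout, where the genome had 0.513% and 1.84% of genes with as many. The 4 genes are SYN3, CACNG2, CACNA1I and MPPED1, and all belong to the 13. Whether a site lay in an exon or an intron could not be told from the gene table used, which gives the ends of genes only.

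**Figure D4:**
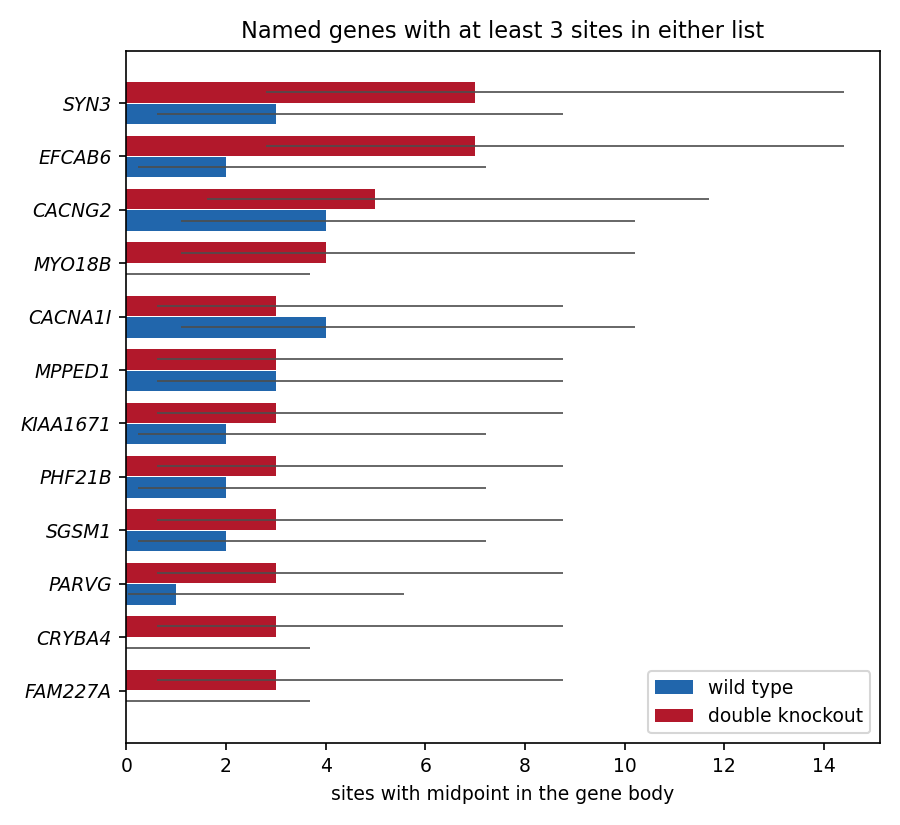
Wild-type (blue) and double-knockout (red) sites in the named protein-coding genes of the interior with at least 3 sites in either list; bars start at 0 and thin lines are 95% exact Poisson intervals. SYN3 and EFCAB6 reach 7 double-knockout sites, CACNG2 and CACNA1I have 4 wild-type sites each, and MYO18B, CRYBA4 and FAM227A have none; the intervals of every gene shown overlap between the lists.

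Of the gene lists examined, the one of synapse and channel genes held the most sites. This list was drawn up with earlier results known. Of its 11 genes, 4 had a wild-type (36.4%) and 5 a double-knockout site (45.5%), beside 8.55% and 19.2% of all protein-coding genes of the interior. The 11 genes held 12 and 18 sites in all, where the rate of the interior over their summed length of 1480 kb gives 3.51 and 8.36. Apart from 1 in SHISAL1, the wild-type sites all lay in SYN3, CACNG2 and CACNA1I. The median member held 0 sites in either list. SYN3, which encodes a synapsin of synaptic vesicles (32507820 to 33058381), held 3 wild-type sites with folds of 7.48, 3.57 and 6.19 in order of position. The double knockout had the same 3 at 4.36, 5.73 and 4.16 and another 4, all at higher positions, from 3.54 to 4.41. CACNG2 encodes stargazin, which carries AMPA receptors to the synapse (36560857 to 36703752). Its 4 wild-type sites had folds of 6.36, 5.70, 4.58 and 5.79, and 3 of them were among the 5 of the double knockout, where the first was at 7.74. The rate of the interior gives 0.340 and 0.809 sites in a gene of its length, and the counting intervals of its 4 and 5 sites (1.09 to 10.2 and 1.62 to 11.7) lie above these. CACNG2 was named for its number of sites, so this is a description.

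CACNA1I, the gene of a T-type calcium channel (39570753 to 39689735), held 4 wild-type sites with folds of 5.45, 4.98, 6.62 and 4.88 and 3 double-knockout sites at 4.40, 4.16 and 5.36. The middle 2 wild-type sites were shared. It was the only protein-coding gene with at least 3 sites that had more of them in wild type. SHISAL1 held 1 and 2 sites, and SEZ6L, named for its link with seizures, 0 and 1.

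EFCAB6, which encodes an EF-hand protein (43528778 to 43812305), held 2 wild-type and 7 double-knockout sites. The wild-type sites, at 43737137 to 43737977 and 43738126 to 43738691 with folds of 6.33 and 5.48, met 1 double-knockout site of 1391 bp with a fold of 7.85. The other 6 double-knockout sites had folds from 3.11 to 6.87 and 7.09 to 11.8 reads after division by 1.69. MYO18B, an unconventional myosin of muscle (25742188 to 26063847), had 0 wild-type and 4 double-knockout sites, with folds of 4.87, 3.48, 6.28 and 5.07 and 6.50 to 10.0 divided reads. PARVG, a parvin of blood cells, held 1 and 3 sites in 35.5 kb, and its wild-type site (fold 5.34) was shared (fold 6.07). PARVB beside it held 2 and 2, at the same places.

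The other genes with at least 3 sites have varied or unknown roles. MPPED1, a metallophosphoesterase gene (43412014 to 43507848), held 3 and 3 sites, 2 of them shared, with folds of 5.63, 4.50 and 5.03 in wild-type cells and 5.31, 3.29 and 5.25 in the double knockout. KIAA1671, SGSM1, which encodes a regulator of Rab GTPases, and PHF21B held 2 and 3 each. In SGSM1 only the site at 24807409 to 24807847 was shared, with folds of 3.69 and 4.81. FAM227A had 0 and 3, with folds of 3.58, 6.19 and 5.49. The non-coding gene LINC02558 held 1 and 3, and its wild-type site was shared.

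Of the 4 β-crystallin genes, whose proteins are structural proteins of the lens, CRYBA4 had 3 and CRYBB1, which overlaps it, 2 of the same 3, and no wild-type site was found in any. Their folds were 6.07, 5.48 and 2.97, and the rate of the interior gives 0.207 wild-type and 0.492 double-knockout sites for the 4 genes. The 2 genes are 50.0% of the list, beside 19.2% of all protein-coding genes of the interior. The site with a fold of 2.97 lay 0.284 kb from an annotated start, and it was the only site of the interior within 1 kb of the start of a protein-coding gene.

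Of the 42 listed genes of the region lost in the 22q11.2 deletion syndrome 1 had a wild-type (2.38%) and 6 a double-knockout site (14.3%). Of all protein-coding genes of the interior 8.55% and 19.2% did. The listed genes held 1 and 6 sites where the rate of the interior gives 3.09 and 7.35. ARVCF, a catenin of cell junctions, held the shared site (folds 4.64 and 5.02). DGCR2 (fold 5.97), CLTCL1, a clathrin heavy chain (5.31), HIRA, the chaperone of histone H3.3 (5.17), UFD1, which acts in protein degradation (5.01), and TXNRD2, the thioredoxin reductase of mitochondria (6.69), held 1 double-knockout site each.

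Of 21 genes of DNA repair, replication and chromatin 1 had a wild-type (4.76%) and 3 a double-knockout site (14.3%), where the rate gives 1.74 and 4.13 sites. The shares over all protein-coding genes of the interior were 8.55% and 19.2%. MCM5, a subunit of the replicative helicase, held the shared site (folds 5.07 and 5.24), and HIRA and XRCC6, the Ku70 subunit of end joining (fold 5.25), held 1 double-knockout site each. The APOBEC3 deaminase genes on that list had none. Among 6 apolipoprotein L genes APOL3 (fold 4.41) and APOL4 (fold 4.61) held 1 double-knockout site each, 33.3% of the list beside 19.2% of all protein-coding genes of the interior. No wild-type site was found in the 6, and the rate gives 0.263 and 0.627 sites. None of 6 glutathione and γ-glutamyl enzyme genes had a site, where the rate gives 0.233 and 0.554.

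Within the immunoglobulin lambda locus, IGL (22026076 to 22922913), lay 4 wild-type sites with folds of 4.69, 5.22, 4.33 and 6.77, and 3 double-knockout sites with folds of 5.12, 5.35 and 6.18. The sites at 22122855 and 22682146 of the wild-type list were shared. None fell in any of the 87 annotated variable, joining and constant segments (a share of up to 3.45%), whose summed length of 35.1 kb would receive 0.0833 and 0.198 sites at the rate of the interior. The 897 kb of the locus would receive 2.13 and 5.08.

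With their edges of 1 kb, protein-coding genes held 48 of the 97 wild-type sites, 49.5% (39.2% to 59.8%), and 124 of the 231 double-knockout sites, 53.7% (47.0% to 60.2%), where the main chromosomes had 47.4% and 49.2%. Another 15 and 27 sites lay in other annotated genes alone (15.5% and 11.7%), and 34 and 80 lay outside genes (35.1% and 34.6%). On chromosome 19, the only chromosome denser in sites, genes held 72.2% (64.9% to 78.6%) and 69.8% (65.6% to 73.8%).

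Distance from gene starts also set the interior of chromosome 22 apart from that of chromosome 19. Its sites lay a median 67.8 kb (50.4 to 92.5) from the nearest start of a protein-coding gene in wild-type cells and 55.8 kb (44.3 to 71.3) in the double knockout. The medians were 9.81 kb (7.71 to 13.3) and 12.3 kb (9.62 to 13.8) on chromosome 19, and 55.7 kb (51.4 to 60.1) and 52.8 kb (50.2 to 55.3) in all interiors other than that of chromosome 22. Within 1 kb of such a start lay 0 of 97 wild-type sites, which allows a share of up to 3.09% (3.73% by the exact interval). Of the 231 double-knockout sites 1 did, 0.433% (0.0110% to 2.39%). The other interiors had 2.63% (2.05% to 3.33%) and 2.60% (2.25% to 2.99%), and chromosome 19 had 9.66% and 9.47%. For the double knockout the interval of the other interiors, which include chromosome 19, meets that of chromosome 22. For wild type their 2.63% lies within what 0 of 97 allows.

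**Figure D5:**
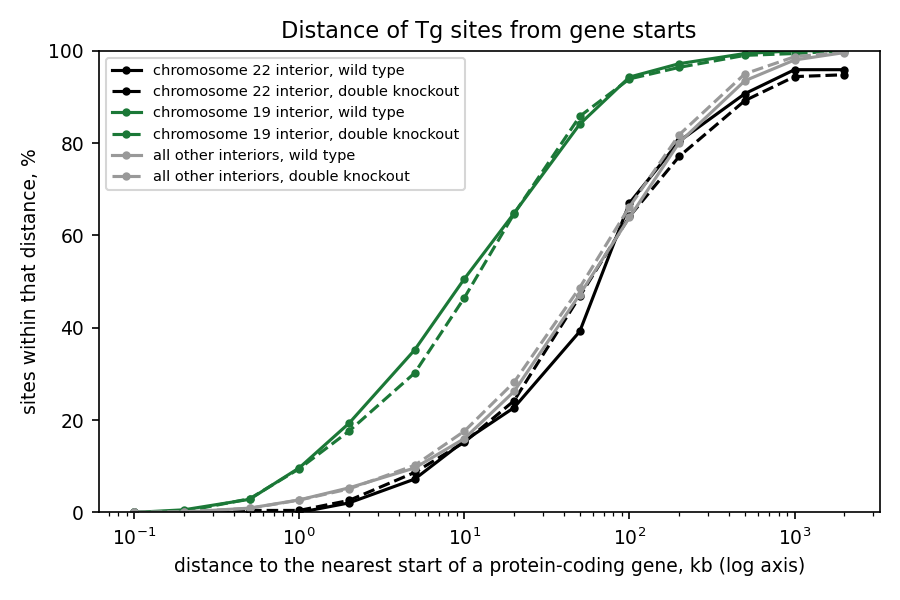
Share of sites (vertical axis, %) within a distance of the nearest annotated start of a protein-coding gene (horizontal axis, kb, log axis) for the interiors of chromosome 22 (black), chromosome 19 (green) and all others (grey), in wild type (solid) and double knockout (dashed). The black curves run with the grey ones, while 35.2% and 30.2% of chromosome 19 sites lie within 5 kb against 7.22% and 8.66% on chromosome 22.

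Sites also came in groups. The median distance to the nearest site of the same list was 43.7 kb in wild-type cells and 26.7 kb in the double knockout, and 19 (19.6%) and 60 (26%) sites lay within 10 kb of another. Counted once per such group, the lists held 87 and 197 places. A list with more sites has closer neighbours, so these shares do not tell which list groups more. No such values for other chromosomes are given here.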

How the data were processed

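The submitters' processing notes name Bowtie2, MACS2, bedtools, deepTools and build hg38. Versions, roles, settings, the control input and the way the 2 labelled libraries of a genotype were combined: not given in the sources used here. The deposited lists, 1 per genotype, have the layout of narrow peaks. The authors' score is 10 times −log10 q, rounded down; the deposited fold is a ratio, reads at the summit over background. The −log10 p and −log10 q were deposited as the caller gave them. The largest q was 0.0450 (wild type) or 0.0489 (double knockout). Folds describe and rank sites within their own list.

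Whole reads and background were recovered from the fold and −log10 p. The fold was taken as reads plus 1 over background plus 1, and p as a Poisson tail. The match was within 0.001 at 100% of sites. The method was also tested on simulated data made with the same formulas, so that test cannot check the formulas. Double-knockout reads were divided by 1.69, the ratio of the lowest backgrounds (1.25 and 0.739), or by 1.61 after correction for the narrowest site (256 and 243 bp). Total reads per library are unknown. Genes came from RefSeq, GRCh38.p14, whose primary coordinates are those of hg38 (19866 protein-coding genes; rows on scaffolds left out), and starts from its promoter table. A site was assigned by its midpoint, and sites overlapped when they shared 1 bp. Python 3.11.15, numpy 2.4.6, pandas 2.3.3 and scipy 1.17.1 were used. Intervals are 95% exact Poisson, exact binomial (Clopper-Pearson) or, for medians, binomial on ranks. The share said to be allowed by a count of 0 is 3 over the number examined, which is lower than the exact limit.

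Named genes have at least 3 sites in either list, hold 1 of the 10 sites with the lowest q, or hold a site and belong to a listed group; named windows are the first 5 of each list and those without a site. Non-coding genes were named by the first 2 criteria. Genes named only for a promoter, a window, a missing partner or the limit of the interior, and the windows at 22 and 38 Mb, were chosen after their values were seen. Of the listed genes, BRD1 lies outside the interior and GSTT1 is on a scaffold in the table, so neither was counted. Another gene is not reported here: it was left out of its list and of the plot of genes, and stays in the counts over all genes. Members and lists were chosen with earlier results of these data known.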

Additional observations from a re-analysis of the deposited data

How the results depend on the processing

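Of the 39 alternatives computed, 34 left a result within its counting interval or, for a number of sites or windows, within 1.5 times its value. The ratio of double-knockout to wild-type sites, 2.38, became 1.07 with double-knockout reads divided by 1.69 and both lists above the wild-type median −log10 p, and 1.23 or 1.34 as the expected value after thinning by 1.69 or 1.61, settings chosen after seeing the data. The share of wild-type sites overlapping a double-knockout site was 67.0% when at least 50% of both sites had to overlap, and the share of double-knockout sites in a protein-coding gene was 63.2% with genes extended by 5 kb. The cause was not tested. Sites of 7 to 35 reads give wide intervals. No paired analysis was possible because each genotype has 1 list without values per library, and for the same reason no replicate could be left out.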
